A study of Mus musculus with 13 samples.

Results

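Replication licensing was followed at the mRNA level through 10 genes: Mcm2, Mcm3, Mcm4, Mcm5, Mcm6 and Mcm7, which encode the subunits of the MCM helicase, Orc1, Cdc6 and Cdt1, which encode factors that load it, and Gins1, which encodes a subunit of the GINS complex. The genes were taken by symbol, with no threshold on a measured value, and all 10 were found among the 24421 genes counted in both RNA-seq tables. The cells were female F1-2.1 mouse embryonic stem cells (mESCs), from a cross of CAST/Ei with 129/Sv/Jae, cultured on γ-irradiated fibroblast feeders. Every library came from clone A2, a single clone with a Tet-on transgene for CTCF S224E, a form of the chromatin protein CTCF with glutamate in place of a serine that can be phosphorylated. The transgenic CTCF carried a FLAG tag and was co-expressed with EGFP. Polyadenylated RNA was sequenced from 2 cultures grown for 6 days in 1 µg/mL doxycycline (+dox) and from 2 grown without it (−dox), numbered replicate 1 and replicate 2 in each condition. No library of cells treated with dox but lacking the transgene was analysed here, so effects of CTCF S224E and of dox itself cannot be told apart. RNA-seq of cells with induced wild-type CTCF was also absent here. Effects of the glutamate thus cannot be told apart from those of added CTCF or EGFP. The comparison asks whether mRNA of the licensing genes differed when CTCF S224E was induced.

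Before S phase, the origin recognition complex, of which Orc1 is the largest subunit, binds DNA and, together with Cdc6 and Cdt1, places a pair of ring-shaped Mcm2-7 complexes around it. These rings stay inactive until S phase, when the kinases CDK and DDK act on them and Cdc45 and GINS join to form the working helicase. Geminin binding to Cdt1 and destruction of Cdt1 prevent the loading of further rings on DNA that has already been copied. The genes of this pathway are known targets of E2F transcription factors, and mouse ES cells, which divide rapidly with a short G1 phase, are known for high levels of them.

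All 4 libraries expressed ES cell genes, and markers of several cell states differed between them. Counted reads ran from 22899107 to 30206085 per library. The 10 ES cell markers examined, among them Pou5f1, Nanog and Sox2, summed to 6726 and 7420 counts per 1e6 reads (CPM, scaled between libraries by TMM factors) with dox and to 5969 and 6293 CPM without. Their median log2 fold change was 0.23, and edgeR called 0 of them at an adjusted p under 0.01, with 5 higher and 1 lower at an unadjusted p under 0.05, and DESeq2 called 0. The 18 fibroblast markers, collagen genes included, summed to 1541 CPM in +dox replicate 1 and to 662 CPM in +dox replicate 2, against 538 and 574 CPM in the −dox libraries. None of the 18 was at 0 in all libraries. By edgeR's quasi-likelihood test none of them was called at an adjusted p under 0.01, while 14 were higher with dox at an unadjusted p under 0.05, and DESeq2 also called 0. Reads on 4 chromosome Y genes, which a female line lacks, came to 232 in +dox replicate 1 and to between 67 and 75 in the other libraries. Since +dox replicate 1 stood apart in this way, values without it are given beside the results for the licensing genes, and the part of fibroblast RNA in those results was not tested. Summed levels of 8 primitive streak genes, such as T and Eomes, which mark the onset of differentiation, were 28.6 and 30.2 CPM with dox and 149.7 and 174 CPM without, and edgeR called 6 of the 8 lower. The part of these and of the ES cell markers in the results was likewise not tested. Counts at Ctcf itself, which do not separate the transgene from the endogenous gene, were 327 and 329 CPM with dox and 295 and 304 CPM without. Its log2 fold change was 0.13 with an adjusted p of 0.475 in edgeR. The study reports that a minority of RNA-seq reads over the mutated codon carried the glutamate codon, and calls the exogenous expression modest.

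Short sequences that match E2F sites were found in the start regions of most of these genes, and they are shown here. The genes were not chosen by sequence, but they are known targets of E2F factors, so the matches are not an independent finding. RefSeq promoter windows, from 250 bases before to 50 bases after an annotated start, were at hand for 8 of the 10 genes. Mcm4 and Gins1 were not among them. The windows come from the GRCm38.p6 annotation and were placed on NCBIM37 (mm9), the build of the counts, by an exact match of their sequence. An E2F site, taken as TTTGGCGC, TTTCGCGC, TTTCCCGC or TTTGCCGC on either strand, was found in 7 of the 8 windows, and in 2.26% of all 32851 promoter windows in the table. That share was not matched for GC content, which ran from 48.7% (Mcm3) to 66.7% (Cdt1) in the 8 windows. In the sequences that follow, written 5′ to 3′ on the strand of the gene, the capitals mark the matched letters, which read as the reverse complement where the match is on the opposite strand.
Mcm3, chr1:20810357-20810384, minus strand: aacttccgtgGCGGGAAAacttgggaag
Mcm3, chr1:20810344-20810365, minus strand: cttgggaagtTTTGGCGCcaag
Mcm5, chr8:77633245-77633276, plus strand: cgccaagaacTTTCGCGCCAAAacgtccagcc
Mcm6, chr1:130256371-130256402, minus strand: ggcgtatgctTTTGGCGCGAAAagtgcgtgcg
Mcm6, chr1:130256312-130256339, minus strand: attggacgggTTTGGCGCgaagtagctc
Mcm7, chr5:138613259-138613286, minus strand: atttcgaaccGCGGGAAAcagggtgtcc
Mcm7, chr5:138613078-138613105, minus strand: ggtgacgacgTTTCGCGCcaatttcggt
Cdc6, chr11:98769317-98769344, plus strand: ccggtggagaGCGGGAAAtcgcctgggg
Cdt1, chr8:125091937-125091964, plus strand: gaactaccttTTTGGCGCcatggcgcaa
Orc1, chr4:108252022-108252049, plus strand: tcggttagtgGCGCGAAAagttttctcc

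Mcm2 was the one gene of the 8 without these letters in its window. At Mcm5 and Mcm6 matches on both strands overlapped, and the 12 bases they cover at Mcm5, TTTCGCGCCAAA, are the reverse complement of the 12 at the distal match of Mcm6, TTTGGCGCGAAA. Counting matches that overlap on opposite strands, Mcm3, Mcm5, Mcm6 and Mcm7 held 2 or more, as did 0.0974% of all windows. The sites lay on both sides of the annotated start, from position -165 at Mcm7 to position 39 at Mcm3, counted from the start that RefSeq gives. That start differs from the start of the counted transcript by 99 bp at Mcm3, 21 bp at Mcm7 and 262 bp at Cdc6, and by 0 bp at the other 5 genes. The CCAAT box, searched as CCAAT on both strands, was in 6 of the 8 windows and in 37.4% of all windows. The CHR element, searched as TTTGAA or TTTAAA on both strands, was in the windows of Mcm2 and Mcm5, 2 of 8, and in 27.6% of all windows. These matches describe letters only, and binding of any factor there was not analysed here.

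The helicase subunits and Cdt1 were strongly expressed in both conditions, well above Gins1 and the other loading factors. Levels of different genes are compared here per length, as reads per kilobase of counted exon per 1e6 TMM-scaled reads (RPKM). Mcm2, whose product also binds histones, was the highest of the 10 in every library, at 282 ± 7.79 RPKM (SD, n = 2) with dox and 279 ± 14.5 RPKM (SD, n = 2) without. Cdt1, which brings the MCM ring to the origin, stood next at 255 ± 15.6 RPKM with dox and 234 ± 19.8 RPKM without. With dox it was followed by Mcm7 at 235 ± 21.4 RPKM and Mcm3 at 227 ± 2.02 RPKM. Without dox Mcm3, at 229 ± 11.1 RPKM, stood before Mcm7, at 216 ± 13.0 RPKM. Among Cdt1, Mcm3 and Mcm7, genes that were neighbours in this order overlapped in both conditions, so the order of neighbours was not resolved. With dox, Cdt1, at 244 and 266 RPKM, lay above Mcm3, at 226 and 229 RPKM.

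Mcm5 came next at 162 ± 1.48 RPKM with dox and 164 ± 9.75 RPKM without, and then Mcm4 and Mcm6. Mcm4 was at 109 ± 2.50 RPKM with dox and 125 ± 0.134 RPKM without, and Mcm6 at 101 ± 0.795 RPKM and 109 ± 5.36 RPKM. The step down to Orc1 was the largest in the order, at 31.4 ± 0.268 RPKM with dox and 35.2 ± 0.923 RPKM without. Gins1 was at 29.9 ± 4.67 RPKM and 32.7 ± 1.01 RPKM, overlapping with Orc1 with dox but not without it. Cdc6, an ATPase of the loading reaction, was the lowest at 17.0 ± 0.0885 RPKM and 19.9 ± 0.471 RPKM. Among the 13911 genes averaging 1 CPM or more, Mcm2 was at percentile 99.2 of RPKM and Mcm6, the lowest helicase subunit, at percentile 94.6. Orc1 and Gins1 were at percentiles 77.7 and 76.6, and Cdc6 at percentile 64.0.

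**Figure D1:**
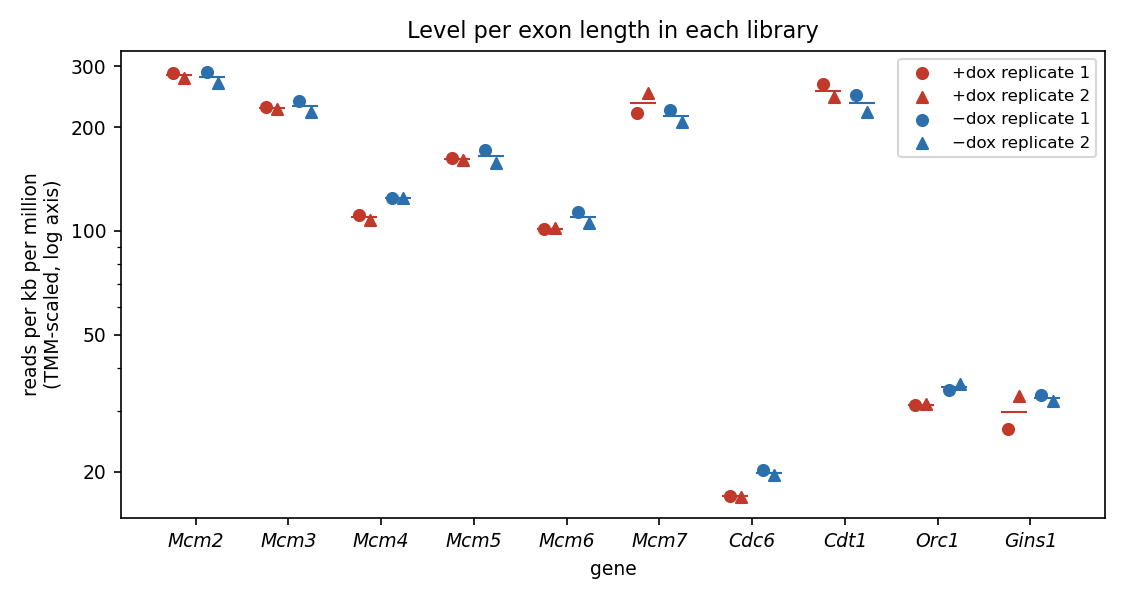
Reads per kilobase and 1e6 reads (RPKM, log axis) of the 10 genes in each library, with short lines at the mean of each condition. Red marks +dox and blue −dox, with circles for replicate 1 and triangles for replicate 2. Mcm2 is highest and Cdc6 lowest in all 4 libraries, and the 4 points of a gene lie close together compared with the distance from Mcm2 to Cdc6.

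No licensing gene changed past the threshold with dox. Of 20044 genes tested by edgeR's quasi-likelihood test, 120 (0.599%) had an adjusted p under 0.01, 16 higher and 104 lower, and 0 of the 10 licensing genes were among them. At an unadjusted p under 0.05, 2 of the 10 genes were lower (Mcm4 and Cdc6) and 0 were higher. This compares with 9.31% of all genes lower and 17.8% in either direction at that p. Of the 6521 genes with a mean CPM at least that of Gins1, 695 were lower at that p and 1592 differed in either direction. DESeq2 called 375 genes, 2.71% of those it gave an adjusted p, and 0 of the 10, of which 0 had an unadjusted p under 0.05. The adjusted p of the 10 genes ran from 0.254 to 0.958 in edgeR and from 0.287 to 0.981 in DESeq2.

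The estimates were small. The 10 log2 fold changes (+dox over −dox) ran from -0.22 for Cdc6 to 0.13 for Mcm7, and 3665 of 6521 genes (56.2%) with a mean CPM at least that of Gins1, the least counted of the 10, lay within the same range. Their median was -0.06, with -0.11 in replicate 1, 0.03 in replicate 2 and -0.03 when +dox replicate 1 was left out. The medians of all 20044 genes and of the 6521 genes were 0.01 and 0.03. In 4 of the 10 genes (Mcm4, Mcm6, Cdc6 and Orc1) both +dox libraries lay below both −dox libraries, and in 0 the reverse held. Of all genes tested, 23.7% were lower without overlap in this way, as were 23.1% of the 6521. Higher without overlap were 4665 of the 20044 genes and 2112 of the 6521. With 2 libraries per condition, the 95% intervals of the changes reached from -26.5% (Gins1) to 25.6% (Mcm7). Shifts within the interval of a gene were not excluded. Changes of 37.3% in Cdkn1a and 32.6% in Trp53, described below, also went uncalled by edgeR, so these intervals are not limits of detection.

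**Figure D2:**
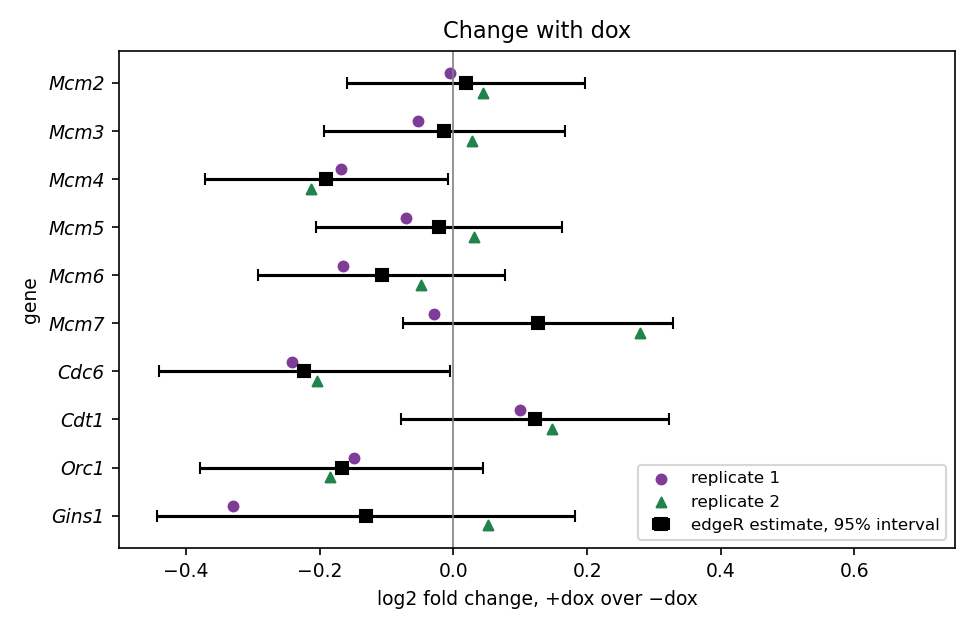
Log2 fold change (+dox over −dox) of each of the 10 genes, with squares and bars for the edgeR estimate and its 95% interval, circles for replicate 1 and triangles for replicate 2. The intervals of Mcm4 and Cdc6 end just below 0, at -0.01, and the other 8 include 0.

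Among the helicase subunits, Mcm4 had the lowest p. The Mcm4 gene (NM_008565) spans positions 15623990 to 15637493 of chromosome 16 (mm9, minus strand), and its product forms, with those of Mcm6 and Mcm7, a subcomplex with helicase activity of its own. It was counted at 397 and 384 CPM with dox and at 446 and 445 CPM without. The +dox libraries were thus both lower, with a gap several times the distance between replicates. The log2 fold change was -0.19 ± 0.08 (SE), or -12.4%, and it was -0.17 in replicate 1 and -0.21 in replicate 2. Its p in edgeR was 0.0412 before adjustment, rank 3252 of 20044, and 0.254 after it. Without +dox replicate 1 the log2 fold change was -0.22 with an adjusted p of 0.283.

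Mcm6 and Mcm7, the partners of Mcm4 in that subcomplex, did not share one direction. Mcm6 (NM_001313695, chromosome 1 from 130228152 to 130256282, minus strand) was counted at 445 and 450 CPM with dox and at 499 and 466 CPM without. The 2 conditions did not overlap, but the −dox replicates differed from each other more than the nearest libraries of the 2 conditions did. The log2 fold change was -0.11 ± 0.08 (SE), with an adjusted p of 0.577 in edgeR, and it was -0.16 in replicate 1 and -0.05 in replicate 2. Without +dox replicate 1 it was -0.10 (adjusted p of 0.705), and without −dox replicate 1 it was -0.06 (adjusted p of 0.775).

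Mcm7 (NM_008568, chromosome 5 from 138605817 to 138613090, minus strand) was the most variable subunit. It was counted at 524 and 596 CPM with dox and at 535 and 491 CPM without. Only +dox replicate 2 was above both −dox libraries, and the log2 fold change was 0.13 ± 0.09 (SE, adjusted p of 0.538 in edgeR), with -0.03 in replicate 1 and 0.28 in replicate 2. Without +dox replicate 1 it was 0.22 (adjusted p of 0.257), and without +dox replicate 2 it was 0.03 (adjusted p of 0.923). Counts of Mcm7 may carry a further uncertainty. In the GENCODE M1 annotation its exons, taken over all transcripts, share 321 bases with Ap4m1 and 64 bases with Cops6 on the opposite strand. They also share 84 and 88 bases with the microRNA genes Mir25 and Mir93 on its own strand. The overlap with the exons of NM_008568 itself was not computed. Whether the counting used strand is not stated.

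Mcm2, Mcm3 and Mcm5, which encode the remaining subunits, stayed within the spread of their replicates. Mcm2 (NM_008564, chromosome 6 from 88833468 to 88848774, minus strand) was counted at 965 and 928 CPM with dox and at 968 and 899 CPM without, and its log2 fold change was 0.02 ± 0.08 (SE), with an adjusted p of 0.935 in edgeR. Mcm3 (NM_008563, chromosome 1 from 20793095 to 20810294, minus strand) was counted at 656 and 648 CPM with dox and at 680 and 635 CPM without, and its log2 fold change was -0.01 ± 0.08 (SE), with an adjusted p of 0.958 in edgeR. In both genes the +dox libraries lay between the −dox libraries or overlapped them. Mcm5 (NM_001302540, chromosome 8 from 77633408 to 77652338, plus strand), which with Mcm2 forms the gate through which DNA enters the ring, was counted at 554 and 547 CPM with dox and at 582 and 535 CPM without. Its log2 fold change was -0.02 ± 0.09 (SE), with an adjusted p of 0.924 in edgeR. The 95% intervals of these 3 genes lay between -13.3% and 14.6%. Without +dox replicate 1 their log2 fold changes were -0.01, -0.02 and -0.03.

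**Figure D3:**
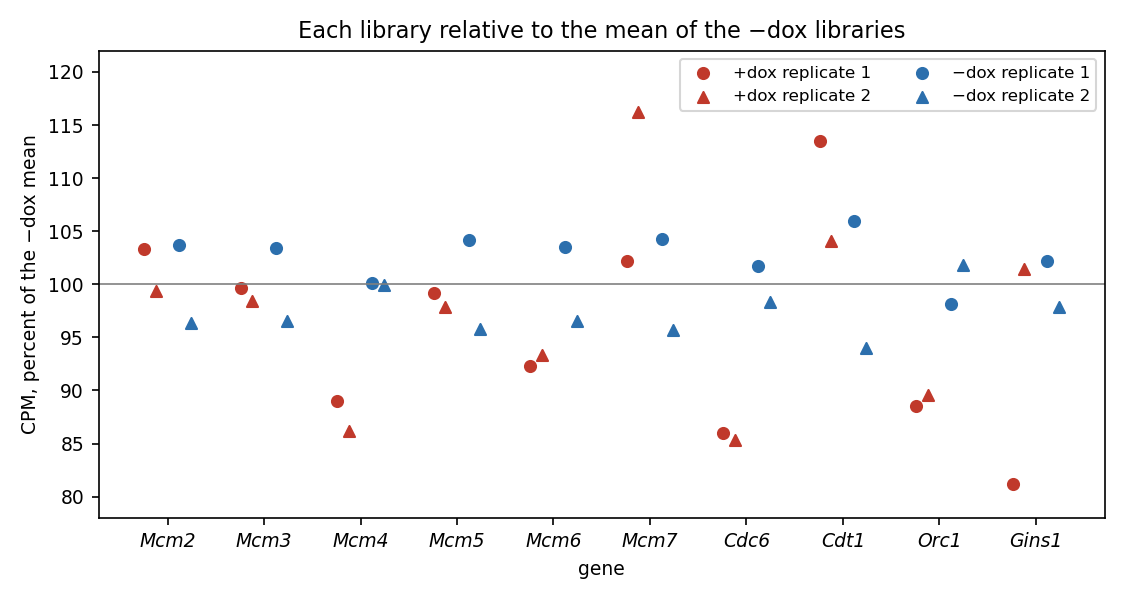
CPM of each gene in each library as a percent of the mean of its −dox libraries (the axis does not start at 0). Red marks +dox and blue −dox, with circles for replicate 1 and triangles for replicate 2. The red points of Mcm4, Mcm6, Cdc6 and Orc1 lie below both blue points, and those of Mcm7 and Gins1 are far apart from each other.

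Because the proteins of Mcm2 to Mcm7 enter the ring in equal numbers, the balance of their mRNAs was also described. Summed RPKM of the 6 genes was 1112 and 1124 with dox and 1160 and 1084 without, so the −dox libraries enclosed the +dox libraries. The highest of the 6 was Mcm2 and the lowest Mcm6 in each library, with a ratio of 2.85 and 2.71 with dox and of 2.55 and 2.54 without. Mcm4 made up 9.99% and 9.57% of the sum with dox and 10.8% and 11.5% without. The share of Mcm6 was likewise lower with dox, at 9.08% in both +dox libraries against 9.75% and 9.74%, and that of Mcm7 higher, at 19.8% and 22.3% against 19.4% and 19.04%. The shares of Mcm2, Mcm3 and Mcm5 were within 24.6% to 25.9%, 20.1% to 20.6% and 14.3% to 14.8% over the 4 libraries. These shares describe the libraries and were not tested. The median log2 fold change of the 6 genes was -0.02, with -0.06 in replicate 1 and 0.03 in replicate 2.

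**Figure D4:**
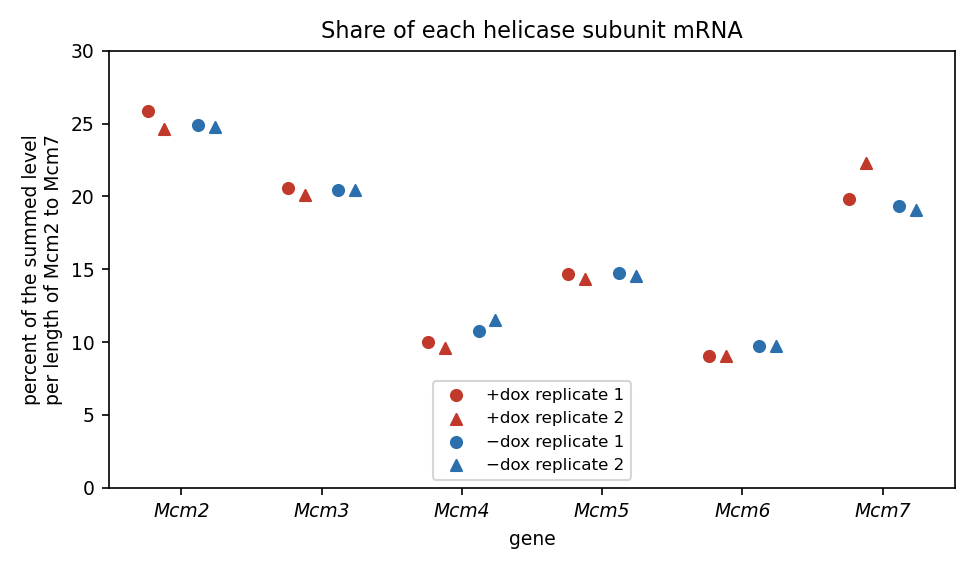
Percent of the summed RPKM of Mcm2 to Mcm7 held by each gene in each library, with red for +dox, blue for −dox, circles for replicate 1 and triangles for replicate 2. Mcm2 holds the largest share in each library, the points of Mcm4 and Mcm6 are lower with dox, and those of Mcm7 are higher.

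Of the loading factors, Cdc6 and Orc1 were lower in both +dox libraries and Cdt1 was not. Cdc6 (NM_001025779, chromosome 11 from 98769203 to 98785256, plus strand) was counted at 77.2 and 76.6 CPM with dox and at 91.2 and 88.2 CPM without. The replicates lay close together in each condition and the conditions did not overlap. The log2 fold change of Cdc6 was -0.22 ± 0.10 (SE), or -14.3%, with a 95% interval from -26.3% to -0.398%. It was the lowest estimate among the 10 genes and was close in replicate 1, at -0.24, and replicate 2, at -0.20. Its p in edgeR was 0.0451 before adjustment and 0.266 after it, and without +dox replicate 1 the log2 fold change was -0.23 with an adjusted p of 0.367.

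Orc1 (NM_011015, chromosome 4 from 108252059 to 108287436, plus strand), whose product is the cell-cycle-regulated subunit of the origin recognition complex, was counted at 93.3 and 94.4 CPM with dox and at 103 and 107 CPM without. Both +dox libraries were again the lower. The log2 fold change was -0.17 ± 0.10 (SE) and an adjusted p of 0.413 in edgeR, and it was -0.16 without +dox replicate 1. The exons of Orc1, taken over all transcripts in GENCODE M1, share 376 bases with Gm12743 on the opposite strand, which may leave its counts uncertain. The overlap with the exons of NM_011015 itself was not computed.

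Cdt1 (NM_026014, chromosome 8 from 125091915 to 125097030, plus strand), a target of geminin and of the ubiquitin ligase CRL4 during S phase, was counted at 580 and 532 CPM with dox and at 541 and 480.2 CPM without. The conditions overlapped, since +dox replicate 2 was below −dox replicate 1. The log2 fold change was 0.12 ± 0.09 (SE), with an adjusted p of 0.554 in edgeR, and 0.06 without +dox replicate 1. It depended on the −dox libraries as well, at 0.21 without replicate 1 and 0.04 without replicate 2 of that condition. Differences between the changes of Cdc6 or Orc1 and that of Cdt1 were not tested.

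Gins1 (NM_027014, chromosome 2 from 150735330 to 150757016, plus strand) was the least precisely measured of the 10, with 645 reads in +dox replicate 1, where Mcm2 had 21715. It was counted at 28.7 and 35.8 CPM with dox and at 36.0 and 34.5 CPM without. Replicate 1 with dox was below the other 3 libraries, which were alike. The log2 fold change was -0.13 ± 0.14 (SE) and an adjusted p of 0.709 in edgeR, and it changed sign to 0.02 without +dox replicate 1. The other subunits of the complex, named here for that reason after their values were seen, had estimates of 0.01 (Gins2), 0.14 (Gins4) and -0.13 (Gins3) on the log2 scale, with adjusted p from 0.567 to 0.980 in edgeR.

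The wider replication pathway gave the same count. Of 112 further genes in 8 lists, all averaging 1 CPM or more, 0 were called by edgeR at an adjusted p under 0.01. An unadjusted p under 0.05 was found for 17, 13 of them lower and 4 higher. Over all genes tested, edgeR called 0.599%, and 17.8% had such an unadjusted p, with 9.31% lower at it. Among the 6521 genes with a mean CPM at least that of Gins1, 1592 had such a p, 695 of them lower. DESeq2 called 1 of the 112, against 2.71% of the genes it gave an adjusted p. The same shares over all genes apply to each list below. The median log2 fold change of the 112 genes was -0.03. In bulk RNA, fewer cells of a kind (such as cells in S phase) and less RNA per cell cannot be told apart for any of these genes.

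Of the 15 other licensing genes, 1 was lower and 1 higher at an unadjusted p under 0.05, and the median was 0.01. Dtl, which encodes the CRL4 adaptor that directs Cdt1 to destruction, was at 114 and 127 CPM with dox and at 134 and 150.0 CPM without. It had a log2 fold change of -0.24 and an adjusted p of 0.251 in edgeR. Gmnn, which encodes geminin, was at 41.4 and 45.1 CPM with dox and at 51.3 and 50.5 CPM without, with a log2 fold change of -0.24 and an adjusted p of 0.337. Orc2, a core subunit of the origin recognition complex, had a log2 fold change of 0.21 (adjusted p of 0.271), opposite in sign to that of Orc1.

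Of the 17 genes that activate the loaded helicase, 2 were lower and 0 higher at an unadjusted p under 0.05, and the median was -0.06. Topbp1, a scaffold for the assembly of the active helicase, was at 236 and 248 CPM with dox and at 274 and 287 CPM without, with a log2 fold change of -0.21 (adjusted p of 0.220 in edgeR). Cdc7, the catalytic subunit of DDK, which phosphorylates the MCM ring, had a log2 fold change of -0.27 and an adjusted p of 0.316. Ccne2, a cyclin E gene, had the lowest estimate of the list, -0.47 with an adjusted p of 0.259, and the replicates differed, with -0.07 in replicate 1 and -0.88 in replicate 2.

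Genes of the fork and of nucleotide supply had medians near 0. Of 27 replication fork genes, 2 were lower and 1 higher at an unadjusted p under 0.05, with a median of 0.02. Rfc5, a subunit of the loader of the sliding clamp, had a log2 fold change of 0.30 (adjusted p of 0.133 in edgeR), whereas Pola1, the catalytic subunit of polymerase alpha, had -0.25 (adjusted p of 0.195) and Wdhd1, a fork adaptor, -0.23 (adjusted p of 0.237). Of the 10 genes of nucleotide supply and chromatin assembly, 1 was lower at that p. This was Slbp, the binding protein of histone mRNA, at -0.24 (adjusted p of 0.222 in edgeR), followed by Uhrf1 at -0.13 and Rrm2 at -0.11, with adjusted p of 0.540 and 0.553. The helicase relatives Mcm8 and Mcm9, which act in recombination rather than in licensing, changed by -0.01 and -0.12 on the log2 scale (adjusted p of 0.974 and 0.709).

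**Figure D5:**
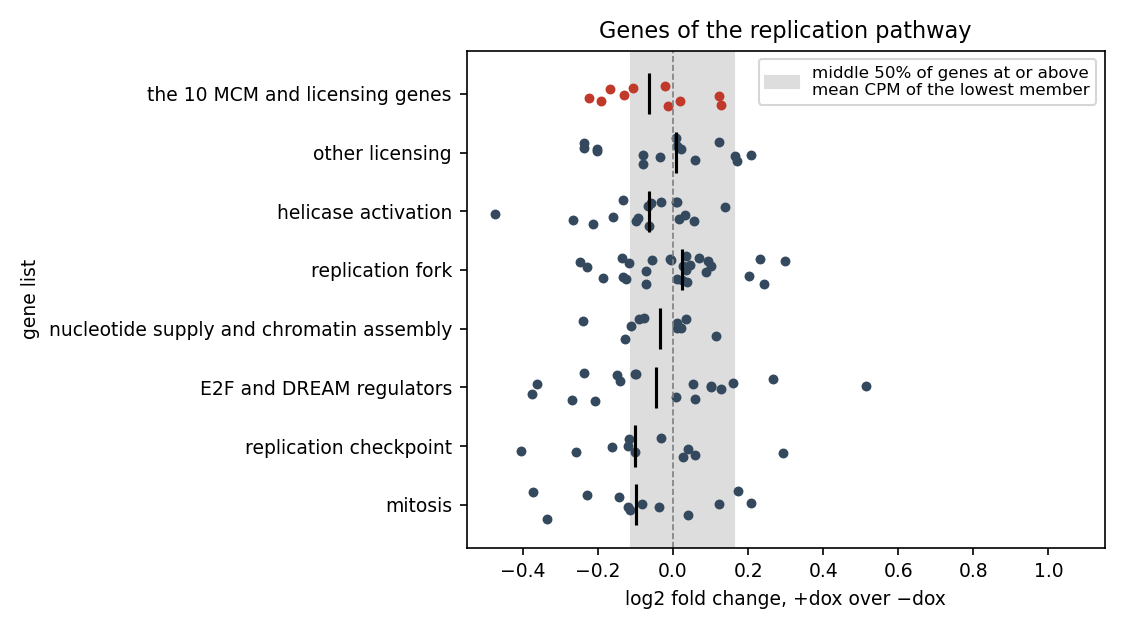
Log2 fold change (+dox over −dox) of single genes, 1 point a gene with the vertical position in each row spread at random, for the 10 licensing genes (red) and 7 lists of the replication pathway. Black bars are medians, and the grey band holds the middle 50% of the 6521 genes with a mean CPM at least that of Gins1, from -0.11 to 0.16. The medians of the lists lie between -0.10 and 0.02.

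E2F and DREAM factors, which control transcription of licensing genes, included the gene with the lowest p of the 112. Lin37, a subunit of the DREAM complex, was at 58.5 and 66.1 CPM with dox and at 43.5 and 43.8 CPM without. Its log2 fold change was 0.51 ± 0.12 (SE). The adjusted p was 0.0394 in edgeR, above the threshold, and 0.00755 in DESeq2, where it was the called gene. E2f1, an activator of licensing genes, was at 112 and 110.2 CPM with dox and at 137 and 125 CPM without, with a log2 fold change of -0.24 (adjusted p of 0.220 in edgeR). E2f5, which encodes a repressor, had a log2 fold change of -0.37 (adjusted p of 0.179). Of the 18 genes of this list, 2 were lower and 1 higher at an unadjusted p under 0.05, with a median of -0.05.

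The lowest medians were those of the replication checkpoint and of mitosis, at -0.10 each. Of 11 checkpoint genes, 2 were lower and 0 higher at an unadjusted p under 0.05. Atr, the kinase that responds to stalled forks, was at 59.3 and 58.3 CPM with dox and at 76.7 and 79.1 CPM without. The conditions did not overlap, at a log2 fold change of -0.41 ± 0.11 (SE) and an adjusted p of 0.0629 in edgeR and 0.0308 in DESeq2. Cdc25a, the phosphatase that activates CDK, had a log2 fold change of -0.26 (adjusted p of 0.136 in edgeR) and Rad1, a subunit of the checkpoint clamp, 0.29 (adjusted p of 0.378). Of 12 mitosis genes, 3 were lower and 1 higher at an unadjusted p under 0.05. Bub1, a spindle checkpoint kinase, had a log2 fold change of -0.37 (adjusted p of 0.0592 in edgeR), Mki67, the proliferation marker, -0.33 (adjusted p of 0.0807) and Cdc20, an activator of the anaphase-promoting complex, 0.21 (adjusted p of 0.209).

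Cdkn1a and Trp53, which encode the CDK inhibitor p21 and its activator p53, were checked because p21 restrains CDKs. Cdkn1a was at 261 CPM in both cultures with dox and at 190.3 and 189.9 CPM without. The log2 fold changes of Cdkn1a and Trp53, 0.46 and 0.41, had adjusted p of 0.0196 and 0.0211 in edgeR, above the threshold, and DESeq2 called both. Each was larger in size than the estimates of the 10 licensing genes, a difference that was not tested.

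Mcm4, Mcm7 and Orc1 share their start region with a gene on the opposite strand, and these neighbours were looked up by position after the values were seen. Prkdc, which encodes the catalytic subunit of DNA-dependent protein kinase, starts 466 bp from Mcm4 and was at 79.0 and 77.1 CPM with dox and at 101 and 98.7 CPM without. Its log2 fold change was -0.35 ± 0.10 (SE), -0.35 in replicate 1 and -0.36 in replicate 2, with an adjusted p of 0.0794 in edgeR. Prkdc and Mcm4 were thus both lower in the +dox libraries without overlap, and neither passed the threshold. Ap4m1, 159 bp from Mcm7, had a log2 fold change of 0.15 (adjusted p of 0.652) and Prpf38a, 118 bp from Orc1, 0.20 (adjusted p of 0.323), the latter opposite in sign to Orc1. Ap4m1 was at 25.8 and 26.9 CPM with dox and at 22.8 and 24.5 CPM without, far below Mcm7. Its counts may include reads of Mcm7, since their annotated exons overlap and whether the counting used strand is not stated.

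As an average over the 6 helicase subunits, in which Mcm4 and Mcm6 offset Mcm7, the centred log2 CPM was -0.02 and -0.01 with dox and 0.06 and -0.03 without. Among 9960 genes averaging 10 CPM or more, those nearest to this pattern by root mean square distance over the 4 libraries were Stam2, at 0.00217, Copg1, at 0.00417, Crbn, at 0.00421, Strada, at 0.00694, and Syngr2, at 0.00696. The profile matched is nearly flat, and nothing further is drawn from these neighbours.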

How the data were processed

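Per the methods of the study, the authors used cutadapt for trimming of paired reads, TopHat2 for alignment to mm9 and HOMER for tabulating unique exonic reads after duplicate removal, and deposited raw counts per gene, with 1 table for each replicate number. The kit kept strand, but whether the counting used it, and the versions of these tools, are not given in the sources used here. Removal of duplicates may lower the counts of the most abundant genes.

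The tables were joined by gene symbol, since 547 genes differ in transcript between them. The 10 licensing genes had 1 transcript in both, and 0 columns of counts were left unused. The 20044 of 24421 genes with any count in any library were tested with the quasi-likelihood test of edgeR 4.0.16 in R 4.3.3 with TMM factors, Benjamini-Hochberg adjustment over all genes, a threshold of 0.01 and no replicate block. Depth was between 22899107 and 30206085 reads. DESeq2 1.42.0, other scalings, filters and thresholds and leaving out each library were the alternatives. The fit was checked on counts drawn with known changes. CPM and RPKM use TMM-scaled library sizes, and single-replicate log2 fold changes a prior count of 2. The study describes the replicates as biological.

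All 10 genes are named, with Mcm8, Mcm9, Ctcf, Cdkn1a and Trp53, the 3 genes of lowest p from each of 7 pathway lists, any called gene of those lists, and the 5 genes of closest pattern. The licensing genes, the lists and the tests were chosen with earlier results of these data known. Promoter letters were searched in RefSeq windows. The ChIP-seq and Hi-C data were not used here.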

Additional observations from a re-analysis of the deposited data

How the results depend on the processing

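None of the 10 licensing genes was called under any alternative, and their lowest adjusted p over all of them was 0.124. How many of all genes were called did depend on the processing. Against 120, DESeq2 called 375, edgeR's filterByExpr, which kept 15278 genes, left 11, edgeR with deviances adjusted for small counts called 0 (3254 at an unadjusted p under 0.05), and a threshold of 0.05 gave 573. Leaving out 1 library gave from 0 to 992 called genes, with 992 and 877 without +dox replicate 1 or 2 and 0 without either −dox library (1753 and 1450 at an unadjusted p under 0.05), the lone library being assumed to vary like the other condition. The cause was not tested. DESeq2's size factors and total counts gave 136 and 104.

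With the replicate block, edgeR called 786 genes, 0 of the 10 licensing genes among them, and the median of the 10 was -0.06. Of the 112 other pathway genes it called Mki67 lower (adjusted p of 0.00776) and Lin37 higher (adjusted p of 0.00793), and it called 13 of the 18 fibroblast markers and 4 of the 10 ES cell markers higher, and 7 of the 8 primitive streak genes lower. With 2 pairs, the correlation of 0.196 between the deviations of same-numbered libraries across genes neither establishes nor excludes a pairing. The changes given for replicate 1 and replicate 2 compare same-numbered libraries and are descriptive.

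The median of Mcm2 to Mcm7 ran from -0.072 to 0.039 when 1 library was left out, the latter without −dox replicate 1, and that of the 10 genes from -0.11 to -0.01. Estimates of 4 genes changed sign: Mcm2 to -0.025 with total counts, to -0.011 without +dox replicate 1 and to -0.034 without −dox replicate 2, Gins1 to 0.019 without +dox replicate 1, and Mcm3 and Mcm5 to 0.037 and 0.041 without −dox replicate 1. With 1 library left out, Mcm2 ran from -0.034 to 0.073, Mcm3 from -0.063 to 0.037, Mcm5 from -0.082 to 0.041, Gins1 from -0.30 to 0.019, Mcm6 from -0.16 to -0.056, Mcm7 from 0.031 to 0.22 and Cdt1 from 0.037 to 0.21. The other 94 estimates for single genes kept their direction and their side of the threshold. With 2 libraries per condition, shifts inside the interval given for each gene were not excluded, and the intervals are not limits of detection.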
